A study of Mus musculus with 12 samples.

Results

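The imprinted growth regulators examined here were the genes Dlk1, Meg3, H19, Igf2, Peg3, Mest, Cdkn1c, Grb10, Plagl1 and Peg10, followed across the 6 sample groups of a mouse embryonic stem (ES) cell study. Members were the probe sets, the short groups of oligonucleotides that read a transcript on an Affymetrix array, whose only gene symbol in the platform's annotation was among these 10. This gave 29 of 45037 non-control probe sets and 9 of the 10 genes: 11 for Meg3, 5 for Peg3, 3 each for Grb10 and Plagl1, 2 each for Dlk1 and Igf2, and 1 each for Mest, Cdkn1c and Peg10. The probe set of H19 carried a second symbol and was therefore not analysed here.

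The cells belonged to a parental ES line called rtTA, after the reverse tetracycline transactivator that doxycycline (Dox) switches on, and to a line derived for inducible expression of Dmrt5, called rtTA-Dmrt5. All were differentiated as monolayers in N2B27, a serum-free medium that favours neural fates, and Dox was given or withheld from day 5. At day 7, after 2 days of Dox, the groups were rtTA -Dox, rtTA +Dox, rtTA-Dmrt5 -Dox and rtTA-Dmrt5 +Dox. At day 9, after 4 days of Dox, they were rtTA-Dmrt5 -Dox and rtTA-Dmrt5 +Dox, with no parental counterpart. Each group had 2 arrays, 12 in all. Each line stands for itself alone, so the transgene and any other difference between the lines cannot be told apart. The labels do not say whether the 2 arrays of a group came from separate cultures, so each p-value measures the spread between these arrays, which may be technical.

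Imprinted genes are expressed mainly from the copy inherited from a single parent, a state set by DNA methylation laid down in the germ line. Many of them act on growth. As a rule, paternally expressed genes such as Igf2, Dlk1, Mest, Peg3 and Plagl1 promote it or belong to the programme of growing tissue. Maternally expressed genes such as Cdkn1c, H19 and Meg3 as a rule restrain it. Several imprinted genes are active in the embryonic nervous system, and some are known to lose or gain imprints in cultured ES cells.

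Promoter sequences are shown for 4 members because their probe sets moved apart or together below: Dlk1 and Meg3 are neighbours expressed from opposite parental copies, and Plagl1 and Peg3 are imprinted zinc finger genes whose probe sets were higher in rtTA-Dmrt5 +Dox cells at day 7. Each is the 250 bases before the annotated start, 5′ to 3′ on the gene's strand, from RefSeq on build GRCm38.p6, with every CG, the dinucleotide that carries the methylation of imprints, in capitals. The windows are chr12:109452573-109452822 on the plus strand for Dlk1, chr12:109540746-109540995 on the plus strand for Meg3, chr10:13090582-13090831 on the plus strand for Plagl1 and chr7:6730420-6730669 on the minus strand for Peg3.
Dlk1: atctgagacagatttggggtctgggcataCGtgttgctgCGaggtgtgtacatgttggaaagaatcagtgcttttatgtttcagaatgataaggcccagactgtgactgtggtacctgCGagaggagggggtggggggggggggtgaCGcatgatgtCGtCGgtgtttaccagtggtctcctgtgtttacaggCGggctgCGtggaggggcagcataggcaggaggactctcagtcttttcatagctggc
Meg3: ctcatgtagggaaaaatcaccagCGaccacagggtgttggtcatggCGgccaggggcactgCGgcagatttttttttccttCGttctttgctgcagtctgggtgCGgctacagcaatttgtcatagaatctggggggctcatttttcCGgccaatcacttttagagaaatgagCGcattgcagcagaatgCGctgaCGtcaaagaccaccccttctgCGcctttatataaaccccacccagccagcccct
Plagl1: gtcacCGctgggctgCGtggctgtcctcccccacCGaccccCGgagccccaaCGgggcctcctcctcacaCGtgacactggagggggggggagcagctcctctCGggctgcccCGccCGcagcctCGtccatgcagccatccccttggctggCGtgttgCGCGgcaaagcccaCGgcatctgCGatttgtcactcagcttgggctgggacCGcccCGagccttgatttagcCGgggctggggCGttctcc
Peg3: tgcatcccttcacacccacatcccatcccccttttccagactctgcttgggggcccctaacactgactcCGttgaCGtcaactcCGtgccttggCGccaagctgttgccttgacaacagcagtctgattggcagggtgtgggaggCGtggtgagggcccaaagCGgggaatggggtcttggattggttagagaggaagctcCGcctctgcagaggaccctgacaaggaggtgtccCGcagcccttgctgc

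The Plagl1 window held 19 CG dinucleotides, that of Meg3 10, and those of Dlk1 and Peg3 8 each, against a median of 6 over 32851 RefSeq promoter windows of mouse genes (quartiles 2 and 16). Sequence was found for 7 of the 10 members, in 14 windows. The letters GGGGCCCC, a core bound by the Plagl1 protein, occurred in 1 of these 14, in Peg3, beginning 201 bases before the start, and in 0.889% of all windows. TACANTGT, a core of the Dmrt family, occurred in 0 of the 14 and in 2.35% of all windows. Both strands were searched. These matches describe the letters only, and no methylation was measured.

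Values are log2 differences from each probe set's own median over the 12 arrays, so they compare samples and give no level of a gene. A trace of level survives in the precision of the deposited numbers, which shows the power of 2 between which the median log2 level lay: 13 member probe sets lay at 8 or more, 12 at 4 to 8, 2 at 2 to 4 and 2 at 1 to 2. Differences were tested with limma over all 45037 probe sets, and a probe set was called at a Benjamini-Hochberg adjusted p of 0.05. The number of arrays limits the precision: the pooled SD between the 2 arrays of a group was 0.06 to 0.39 for the members, with a median of 0.18 against 0.16 over all probe sets.

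Checked against markers, 9 of 9 neural progenitor genes and 9 of 10 neuronal ones had a probe set at a median log2 level of 8 or more. So did 8 of 10 of neural crest and surface ectoderm, 4 of 12 of endoderm and 3 of 10 of undifferentiated ES cells. The lowest were mesoderm and mesenchyme (3 of 13), trophoblast (2 of 9 measured) and ventral midbrain and dopaminergic cells (1 of 12). Dmrta2, the gene also called Dmrt5, was lower in the arrays labelled +Dox of rtTA-Dmrt5 cells, by a log2 change of -2.42 ± 0.33 (SE, n = 2 arrays a group, adjusted p = 0.00318) at day 7 and -2.61 ± 0.33 (adjusted p = 0.000823) at day 9. It was 1.92 ± 0.33 higher in rtTA-Dmrt5 -Dox than in rtTA -Dox cells (adjusted p = 0.00323). The labels do not say whether that probe set can read the transgene's transcript, so its direction, which is opposite to the label, checks neither the label nor the transgene. Every direction below rests on the labels.

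Counted over probe sets, the members changed most between the lines, with Dox at day 9 and with time in rtTA-Dmrt5 -Dox cells. In 9 comparisons, 23 of the 29 probe sets and 8 of the 9 genes were called at least once, Grb10 being the exception. Without Dox at day 7, 13 of 29 differed between the lines (44.8%), 5 higher and 8 lower in rtTA-Dmrt5, where 18.7% of all probe sets were called, 8.72% higher and 9.95% lower. With Dox at day 7, 16 of 29 differed between the lines (55.2%), 10 higher and 6 lower, against 14.6% of all probe sets, 7.83% higher and 6.81% lower. The median change over the members was near 0 in both (-0.06 and -0.02, against 0.00 and -0.01 over all probe sets), with called probe sets in both directions.

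Within rtTA-Dmrt5 cells, 4 of 29 were higher with Dox at day 7 (13.8%) and 0 lower, against 3.05% of all probe sets, 1.26% higher and 1.79% lower. At day 9, 16 of 29 responded to Dox (55.2%), 5 higher and 11 lower, against 18.3% of all, 10.3% higher and 7.95% lower. From day 7 to day 9 without Dox, 14 of 29 changed (48.3%), 12 higher and 2 lower, against 7.65% of all, 4.29% higher and 3.37% lower. With Dox, 4 of 29 changed over the same days (13.8%), 3 higher and 1 lower, against 9.10% of all, 5.18% higher and 3.92% lower. The count of 4 at day 7 was 2 without either rtTA -Dox array and 1 without any of the 4 arrays compared, and that of 16 at day 9 was 10 without either -Dox array of that day. The 14 became 6 or 7 without replicate 1 or 2 of -Dox at day 7 and 8 without either -Dox array of day 9, and the 4 over time with Dox became 1 without either +Dox array of day 7. The comparisons within rtTA-Dmrt5 cells and between the lines share arrays, so their counts are not independent.

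No member call fell on a probe set of a median log2 level under 4, so the shares are also given for brighter probe sets. Among probe sets at 4 or more, the share of all called was 27.8% between the lines without Dox and 21.9% with Dox, where the members had 13 and 16 of 25. It was 4.65% for the Dox response at day 7 and 26.3% at day 9, where the members had 4 and 16 of 25. For the change from day 7 to day 9 it was 11.6% without Dox and 13.4% with Dox, against 14 and 4 of 25. Meg3 alone gave 7, 6, 0, 9, 8 and 2 of those 6 counts of calls, and probe sets of a single gene are not independent of each other.

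In the parental rtTA cells, Dox at day 7 gave 0 calls among the members and 0 among all probe sets (0%). At an unadjusted limma p under 0.05, it gave 1 of 29 members and 2323 of all probe sets. The difference between the lines in the Dox response was called for 1 of 29 members, against 1.04% of all probe sets, and the difference between days in the Dox response of rtTA-Dmrt5 cells for 0 of 29, against 0.639%. For that last comparison 14 of 29 members and 6564 of all probe sets had an unadjusted limma p under 0.05. The count of 1 was 0 without rtTA +Dox replicate 2 or any of the 4 rtTA-Dmrt5 arrays of day 7, and 2 without rtTA +Dox replicate 1 or either day 9 +Dox array. The 0 became 6 without day 9 +Dox replicate 2.

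**Figure D1:**
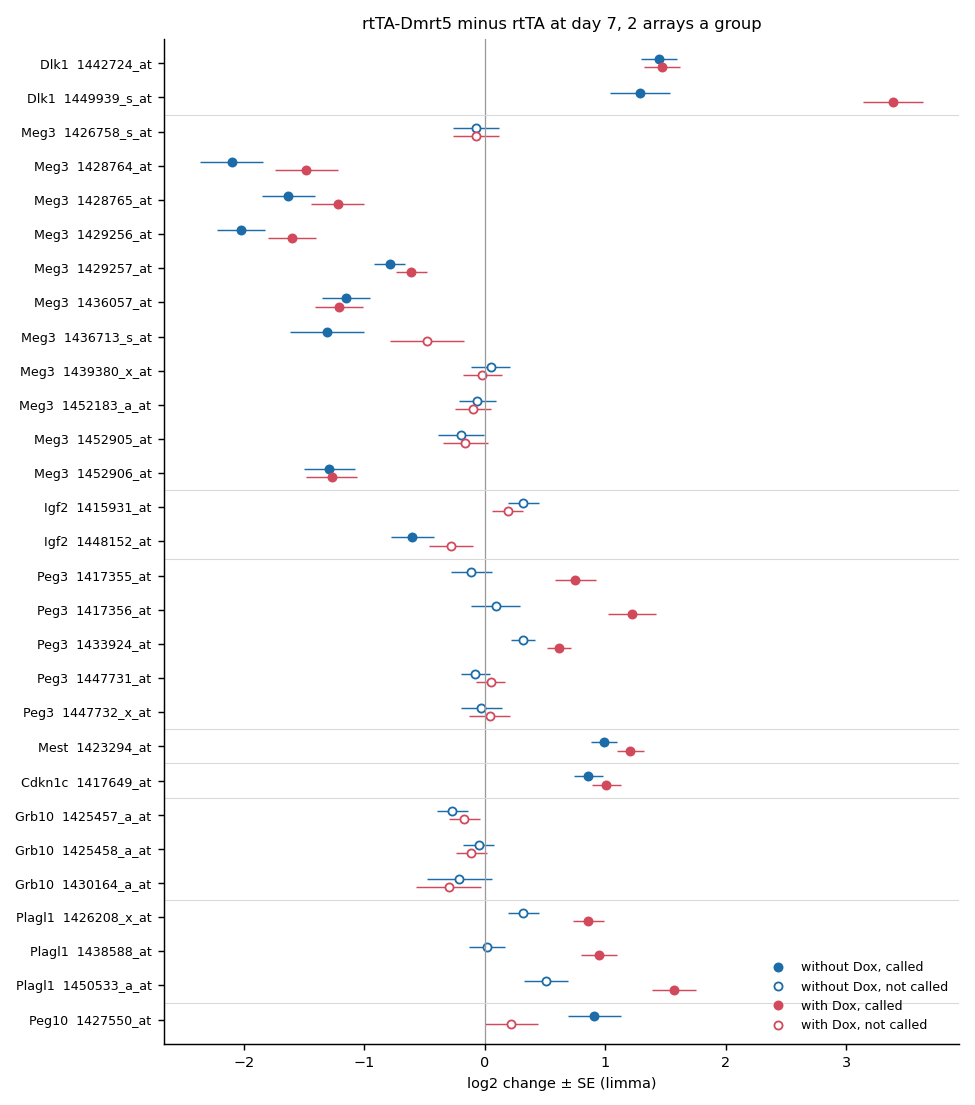
Log2 change (x axis, ± SE) of each of the 29 member probe sets (y axis) between rtTA-Dmrt5 and rtTA cells at day 7, without Dox (blue) and with Dox (red); filled points were called. Both Dlk1 probe sets, Mest and Cdkn1c lie to the right in both comparisons, and 6 of the 11 Meg3 probe sets are called to the left in both. For Peg3 and Plagl1, 3 probe sets each are called with Dox and not without it. The difference between the lines in the Dox response was not called for either of these genes.

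Igf2, the secreted growth factor of fetal tissue, was called in 2 of the 9 comparisons. Its brighter probe set, 1448152_at, read -0.14 and 0.19 in rtTA -Dox, 0.26 and 0.28 in rtTA +Dox, -0.71 and -0.45 in rtTA-Dmrt5 -Dox and 0.01 and -0.04 in rtTA-Dmrt5 +Dox at day 7, then -0.25 and -0.01 in -Dox and 0.35 and 0.84 in +Dox at day 9. The rtTA-Dmrt5 -Dox arrays of day 7 were the lowest pair, below every rtTA array. It was called lower between the lines without Dox (log2 change -0.60 ± 0.18, n = 2 arrays a group, adjusted p = 0.0416) and higher with Dox at day 9 (0.73 ± 0.18, a 1.66-fold difference, adjusted p = 0.0195).

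Both Igf2 calls were close to the threshold. The line difference was lost without any of the 8 day 7 arrays in turn (adjusted p from 0.0545 to 0.222), and the day 9 response without replicate 1 of -Dox (0.126) or replicate 2 of +Dox (0.101). On the compared arrays alone they had adjusted p of 0.0613 and 0.0814. Igf2's other probe set, 1415931_at, at a median log2 level of 2 to 4, stayed between -0.29 and 0.22 on all 12 arrays and was not called in any comparison. The Dox response of Igf2 at day 7 was 0.56 ± 0.18 for 1448152_at (adjusted p = 0.152) and -0.12 ± 0.13 for 1415931_at (adjusted p = 0.736).

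Dlk1, a membrane-bound and shed protein with epidermal growth factor repeats that keeps precursor cells from maturing, was higher in rtTA-Dmrt5 than in parental cells, with the largest difference of all members when Dox was present. Probe set 1449939_s_at read -2.36 and -1.61 in rtTA -Dox, -1.66 and -2.33 in rtTA +Dox, -0.78 and -0.61 in rtTA-Dmrt5 -Dox and 1.46 and 1.32 in rtTA-Dmrt5 +Dox at day 7, then 0.73 and 0.61 in -Dox and 2.26 and 2.13 in +Dox at day 9. All 8 rtTA-Dmrt5 arrays lay above all 4 rtTA arrays, and within rtTA-Dmrt5 the +Dox arrays lay above the -Dox arrays of the same day. rtTA-Dmrt5 exceeded rtTA by 1.29 ± 0.25 without Dox (2.44-fold, n = 2 arrays a group, adjusted p = 0.00635) and by 3.39 ± 0.25 with Dox (10.5-fold, adjusted p = 1.88e-05).

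With Dox, 1449939_s_at rose in rtTA-Dmrt5 cells by 2.09 ± 0.25 at day 7 (4.26-fold, adjusted p = 0.00157) and by 1.53 ± 0.25 at day 9 (2.88-fold, adjusted p = 0.00311). In rtTA cells the change was -0.01 ± 0.25 (adjusted p = 0.999). The difference between the lines in this response was 2.10 ± 0.36 (95% interval 1.31 to 2.90, adjusted p = 0.0248), the only call among the members in that comparison. It was lost on the compared arrays alone (0.0736) and without 6 of the 8 day 7 arrays: adjusted p was 0.0609 without rtTA -Dox replicate 2, 0.0632 without rtTA +Dox replicate 2, 0.1 and 0.0838 without rtTA-Dmrt5 -Dox replicates 1 and 2, and 0.0866 and 0.0857 without rtTA-Dmrt5 +Dox replicates 1 and 2.

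The second Dlk1 probe set, 1442724_at, was called for line and day and not for Dox. It read -1.51 and -1.85 in rtTA -Dox, -1.27 on both rtTA +Dox arrays, -0.08 and -0.39 in rtTA-Dmrt5 -Dox and 0.32 and 0.08 in +Dox at day 7, then 1.49 and 1.51 in -Dox and 1.36 and 1.41 in +Dox at day 9. All day 9 arrays stood above all day 7 arrays of rtTA-Dmrt5, and these above all rtTA arrays. The line differences were 1.45 ± 0.15 without Dox (adjusted p = 0.000175) and 1.47 ± 0.15 with Dox (adjusted p = 0.000116). Dox changed it by 0.43 ± 0.15 at day 7 (95% interval 0.11 to 0.76, adjusted p = 0.183) and by -0.12 ± 0.15 at day 9 (interval -0.44 to 0.21, adjusted p = 0.642) in rtTA-Dmrt5 cells. In rtTA cells the day 7 change was of the same size, 0.42 ± 0.15 (interval 0.09 to 0.74, adjusted p = 0.947).

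Time raised both Dlk1 probe sets in rtTA-Dmrt5 -Dox cells, by 1.74 ± 0.15 for 1442724_at (adjusted p = 0.000213) and 1.37 ± 0.25 for 1449939_s_at (adjusted p = 0.0099). With Dox the rise from day 7 to day 9 was 1.19 ± 0.15 for 1442724_at (adjusted p = 0.00135), and 0.81 ± 0.25 for 1449939_s_at was not called (adjusted p = 0.079). The call of 1449939_s_at over time without Dox was lost without replicate 1 of the rtTA-Dmrt5 -Dox arrays at day 7 (0.0772) or at day 9 (0.0671). The difference between the Dlk1 probe sets in the Dox response was not tested. Probe sets with the suffix _s_at may read more than a single transcript.

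**Figure D2:**
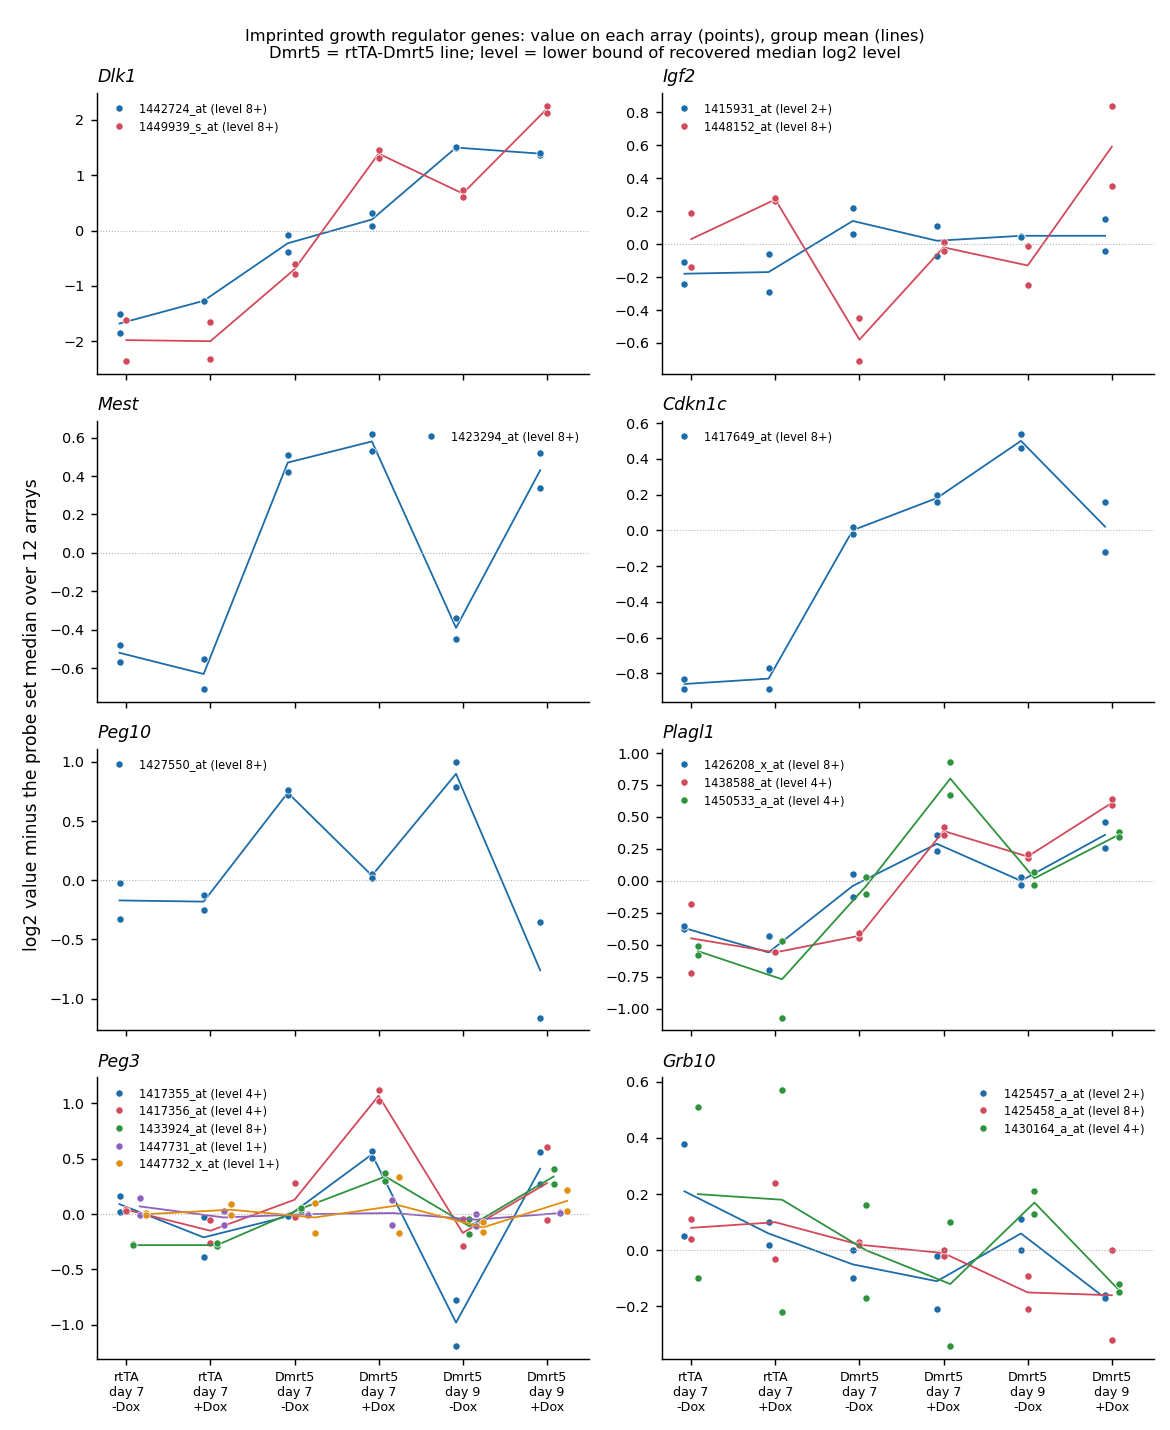
Value of each member probe set other than those of Meg3 on each of the 12 arrays (points; y axis, log2 difference from the probe set's median) by group (x axis), with lines through group means and a colour for each probe set. Dlk1 climbs from the rtTA arrays to day 9, Mest is low in rtTA and in rtTA-Dmrt5 -Dox at day 9, Peg10 is lowest in rtTA-Dmrt5 +Dox at day 9, and the Grb10 values stay between -0.34 and 0.57, with no call.

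Meg3, the maternally expressed long noncoding RNA next to Dlk1 on chromosome 12, was called between the lines on 7 of its 11 probe sets, the dimmer ones. All 7 probe sets at a median log2 level of 4 to 8 were lower in rtTA-Dmrt5 -Dox than in rtTA -Dox cells, by log2 changes of -2.10 to -0.79. The 4 at a level of 8 or more changed by -0.20 to 0.05, and none was called. With Dox, 6 of the 7 were lower (-1.60 to -0.48 over the 7), and the 4 brighter ones changed by -0.16 to -0.02.

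Of the dimmer 7, 1428764_at had the largest difference without Dox, and 1429256_at with Dox. It read 1.23 and 0.77 in rtTA -Dox, 0.73 and 0.30 in rtTA +Dox, -1.05 and -1.15 in rtTA-Dmrt5 -Dox and -0.81 and -1.11 in +Dox at day 7, then -0.14 and 0.55 in -Dox and -0.32 and 0.14 in +Dox at day 9. With the groups in the same order, 1429256_at read 0.60 and 0.26, 0.22 and 0.26, -1.73 and -1.45, -1.22 and -1.50, 0.38 and 0.60, and -0.77 and -0.22. Probe set 1428765_at read 0.39 and 0.31, 0.20 and 0.25, -1.43 and -1.12, -0.72 and -1.28, 0.97 and 0.68, and -0.77 and -0.20. On all 3, the 4 rtTA-Dmrt5 arrays of day 7 were the lowest, apart from a day 9 +Dox array of 1428765_at at -0.77, and did not overlap the rtTA arrays.

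The changes between the lines without Dox were -2.10 ± 0.26 for 1428764_at (4.28-fold lower, n = 2 arrays a group, adjusted p = 0.000579), -2.02 ± 0.20 for 1429256_at (4.06-fold, adjusted p = 0.000149) and -1.63 ± 0.22 for 1428765_at (3.09-fold, adjusted p = 0.00102). Their values with Dox were -1.48 ± 0.26, -1.60 ± 0.20 and -1.22 ± 0.22, each called. From day 7 to day 9 without Dox they rose by 1.30 ± 0.26 (adjusted p = 0.0148), 2.08 ± 0.20 (adjusted p = 0.000355) and 2.10 ± 0.22 (adjusted p = 0.000635).

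Another 4 probe sets of the dimmer class were lower in rtTA-Dmrt5 -Dox than in rtTA -Dox cells, and 3 of them also with Dox, 1436713_s_at being the exception (-0.48 ± 0.31, adjusted p = 0.395). In the same order of groups, 1452906_at read 0.42 and 0.04, 0.08 and 0.20, -1.23 and -0.89, -1.01 and -1.26, 0.74 and 0.77, and -0.63 and -0.04. Values of 1436057_at were 0.74 and 0.35, 0.38 and 0.23, -0.65 and -0.56, -0.65 and -1.16, 0.73 and 0.86, and -0.68 and -0.23. Both were low in every rtTA-Dmrt5 array of day 7 and high again in the -Dox arrays of day 9.

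Values of 1436713_s_at were 0.48 and 0.17, 0.22 and 0.09, -0.96 and -1.0, -0.30 and -0.34, -0.09 and 0.28, and -0.73 and 0.50. Those of 1429257_at kept to a narrower span, 0.49 and 0.43, 0.44 and 0.28, -0.31 and -0.34, -0.26 and -0.25, 0.14 and 0.45, and -0.14 and -0.34. Their differences between the lines without Dox were -1.31 ± 0.31 for 1436713_s_at (adjusted p = 0.0169) and -0.79 ± 0.13 for 1429257_at (adjusted p = 0.00234). That of 1436713_s_at was lost without rtTA -Dox replicate 1 (0.111) or either rtTA-Dmrt5 -Dox array (0.0689 and 0.0845), and that of 1429257_at with Dox without rtTA +Dox replicate 1 (0.0678) or either rtTA-Dmrt5 +Dox array (0.0605 and 0.0567).

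The brighter Meg3 probe sets were flat at day 7. In the same order, 1452183_a_at read 0.00 and -0.04, -0.04 and 0.09, -0.17 and 0.01, 0.00 and -0.15, 0.61 and 0.60, and -0.37 and 0.08. Probe set 1426758_s_at read -0.01 and -0.06, -0.04 and 0.11, -0.22 and 0.01, 0.05 and -0.11, 0.77 and 0.80, and -0.27 and 0.40. The -Dox arrays of day 9 were the highest of all 12 on both.

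On 1439380_x_at the arrays read -0.10 and -0.06, -0.09 and 0.07, -0.11 and 0.06, 0.07 and -0.13, 0.59 and 0.46, and -0.36 and 0.11. The last, 1452905_at, read 0.07 and -0.01, 0.08 and 0.01, -0.34 and 0.01, -0.02 and -0.22, 0.10 and 0.27, and -0.78 and -0.18. All 8 day 7 arrays of 1439380_x_at lay between -0.13 and 0.07. The 95% interval of the line difference without Dox was -0.39 to 0.27 for 1452183_a_at and -0.63 to 0.23 for 1452905_at, and the difference between the brighter and the dimmer probe sets was not itself tested.

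**Figure D3:**
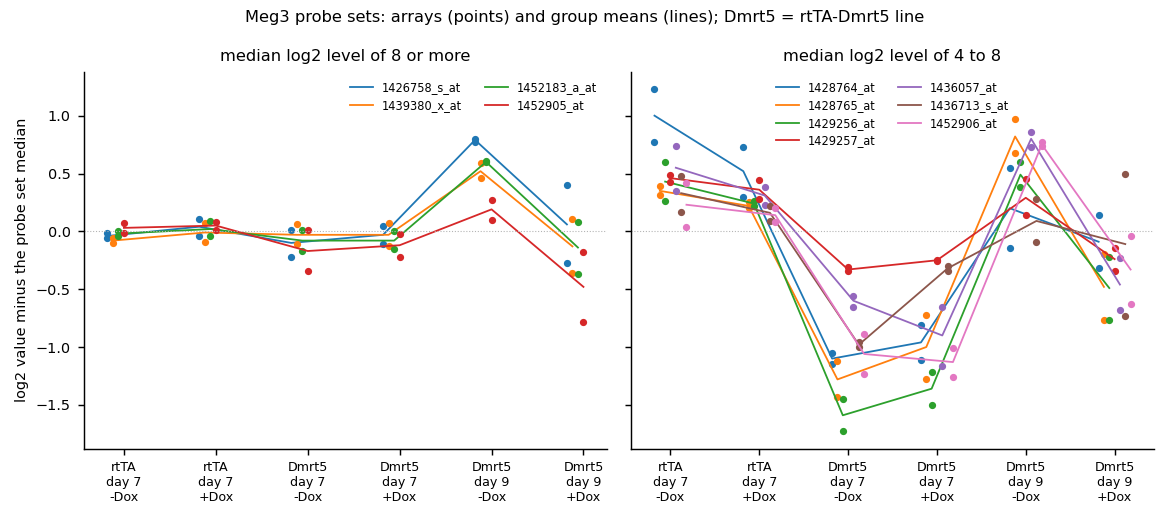
Values of the 11 Meg3 probe sets on the 12 arrays (points; y axis, log2 difference from the probe set's median) by group (x axis), with lines through group means; left, 4 probe sets at a median log2 level of 8 or more, right, 7 at 4 to 8. The 7 on the right drop in both rtTA-Dmrt5 groups of day 7, the 4 on the left do not, and most on both sides peak in rtTA-Dmrt5 -Dox at day 9.

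With Dox at day 9, Meg3 was lower on both kinds of probe set. The call covered 9 of the 11, 4 of 4 at a level of 8 or more (-0.75 to -0.65) and 5 of 7 at 4 to 8 (-1.30 to -0.21 over the 7). At day 7, 0 of 11 were called and the changes ran from -0.30 to 0.66. Among the called, 1428765_at fell by 1.30 ± 0.22 on the log2 scale (adjusted p = 0.00378), 1436057_at by 1.26 ± 0.20 (adjusted p = 0.00288), 1452906_at by 1.08 ± 0.21 (adjusted p = 0.00655) and 1452183_a_at by 0.75 ± 0.15 (adjusted p = 0.00782).

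The day 9 +Dox arrays differed between themselves on Meg3: replicate 2 was higher than replicate 1 on 10 of 11 probe sets, by a median of 0.55 and at most 1.24. Of the 9 calls, those of 1428765_at, 1436057_at, 1452906_at and 1452183_a_at held without any of the 12 arrays in turn. Those of 1426758_s_at and 1439380_x_at were lost without replicate 1 or 2 of -Dox or replicate 1 of +Dox (0.0954 to 0.124 and 0.0516 to 0.109), and 1429256_at without -Dox replicate 2 (0.0534) or +Dox replicate 1 (0.056). That of 1429257_at was lost without replicate 2 of -Dox (0.111) or of +Dox (0.0798), and that of 1452905_at without 9 of the 12 arrays (up to 0.221). On the compared arrays alone 5 of the 9 were lost, 1452183_a_at (0.0618), 1439380_x_at (0.0934), 1429257_at (0.106), 1426758_s_at (0.113) and 1452905_at (0.122), the last also with array weights (0.0585) and after a shift by the polyA controls (0.0567).

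Over time Meg3 rose in rtTA-Dmrt5 -Dox cells on 8 of 11 probe sets, with changes of 0.35 to 2.10 over all 11. With Dox, 2 of 11 rose, 1429256_at by 0.87 ± 0.20 (adjusted p = 0.0247) and 1452906_at by 0.80 ± 0.21 (adjusted p = 0.0411), and all 11 ran from -0.36 to 0.87. Of the 8 calls without Dox, 4 held without any array in turn (1428765_at, 1429256_at, 1436057_at and 1452906_at). Those of 1426758_s_at and 1452183_a_at were lost without any of the 4 arrays compared (0.059 to 0.137 and 0.066 to 0.147), and those of 1428764_at and 1429257_at without either day 7 array or replicate 2 of day 9 (0.0753 to 0.0968 and 0.0891 to 0.112). With Dox, 1429256_at was lost without either day 7 array (0.0604 and 0.167) or replicate 2 of day 9 (0.113), and 1452906_at without 7 of the 12 arrays (0.0545 to 0.227). On the compared arrays alone both calls with Dox were lost (0.0976 and 0.121), as were 1428764_at (0.0523) and 1429257_at (0.0782) without Dox.

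The difference between these Meg3 changes, which is the difference between days in the Dox response, was below 0 on all 11, from -1.59 to -0.43, and called on 0. The smallest adjusted p was that of 1428765_at (-1.59 ± 0.32, adjusted p = 0.0611).

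Grb10, an adaptor protein that dampens insulin and Igf receptor signalling, was not called in any of the 9 comparisons. Probe set 1425458_a_at, at a median log2 level of 8 or more, stayed between -0.32 and 0.24 on the 12 arrays, and its change between the lines without Dox was -0.05 ± 0.13 (95% interval -0.35 to 0.25, adjusted p = 0.839). Its response to Dox at day 9 was -0.01 ± 0.13 (interval -0.31 to 0.29, adjusted p = 0.978). The pooled SD was 0.13 for this probe set, 0.12 for 1425457_a_at and 0.33 for 1430164_a_at. Between the lines without Dox, the interval of 1425457_a_at was -0.55 to 0.02, and that of the more variable 1430164_a_at was -0.81 to 0.40.

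Cdkn1c, which encodes the cyclin-dependent kinase inhibitor p57 and restrains proliferation, was higher in the rtTA-Dmrt5 line than in the parental one. Its probe set 1417649_at read -0.83 and -0.89 in rtTA -Dox, -0.77 and -0.89 in rtTA +Dox, -0.02 and 0.02 in rtTA-Dmrt5 -Dox and 0.20 and 0.16 in +Dox at day 7, then 0.46 and 0.54 in -Dox and 0.16 and -0.12 in +Dox at day 9. All 8 rtTA-Dmrt5 arrays were above all 4 rtTA arrays. The differences between the lines were 0.86 ± 0.12 without Dox (1.82-fold, n = 2 arrays a group, adjusted p = 0.000918) and 1.01 ± 0.12 with Dox (2.01-fold, adjusted p = 0.000283).

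In rtTA-Dmrt5 cells, Cdkn1c rose from day 7 to day 9 without Dox by 0.50 ± 0.12 (adjusted p = 0.0281), and at day 9 it was lower with Dox, by a log2 change of -0.48 ± 0.12 (adjusted p = 0.0188). The first call was lost without any of the 4 arrays compared (0.0925 to 0.154), and the second without replicate 1 or 2 of -Dox (0.062 and 0.0926) or replicate 2 of +Dox (0.085). On the compared arrays alone neither held (0.0699 and 0.117), nor did the second after a shift by the polyA controls (0.0509). At day 7 Dox changed it by 0.18 ± 0.12 in rtTA-Dmrt5 cells (adjusted p = 0.534) and 0.03 ± 0.12 in rtTA cells (adjusted p = 0.991).

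Plagl1, a zinc finger transcription factor that switches on other imprinted genes, was higher in rtTA-Dmrt5 +Dox than in rtTA +Dox cells on 3 of 3 probe sets. Probe set 1450533_a_at read -0.51 and -0.58 in rtTA -Dox, -0.47 and -1.07 in rtTA +Dox, 0.03 and -0.10 in rtTA-Dmrt5 -Dox and 0.93 and 0.67 in +Dox at day 7, then 0.07 and -0.03 in -Dox and 0.38 and 0.34 in +Dox at day 9. In the same order 1438588_at read -0.18 and -0.72, -0.56 on both arrays, -0.45 and -0.41, 0.36 and 0.42, 0.18 and 0.21, and 0.59 and 0.64. The brightest, 1426208_x_at, read -0.38 and -0.35, -0.43 and -0.70, 0.05 and -0.13, 0.36 and 0.23, -0.03 and 0.03, and 0.26 and 0.46. On each of them the rtTA-Dmrt5 +Dox arrays of day 7 lay above the -Dox arrays of that day and above all 4 rtTA arrays.

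Between the lines with Dox, Plagl1 differed by 1.57 ± 0.18 on 1450533_a_at (2.97-fold, n = 2 arrays a group, adjusted p = 0.000249), 0.95 ± 0.15 on 1438588_at (adjusted p = 0.0021) and 0.86 ± 0.13 on 1426208_x_at (adjusted p = 0.00146). Without Dox the same differences were 0.51 ± 0.18, 0.02 ± 0.15 and 0.32 ± 0.13, and none was called (adjusted p 0.0767, 0.944 and 0.116). With Dox in rtTA-Dmrt5 cells at day 7, 1450533_a_at rose by 0.84 ± 0.18 (adjusted p = 0.0333) and 1438588_at by 0.81 ± 0.15 (adjusted p = 0.0195). The difference between the lines in that response was 1.06 ± 0.25 and 0.93 ± 0.21 and was not called (adjusted p 0.0961 and 0.0908). For 1426208_x_at it was 0.53, also without a call.

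The day 7 Dox calls of Plagl1 rested on each of the 4 arrays compared: that of 1438588_at was lost without any of the 4 arrays compared (0.0947 to 0.144), and that of 1450533_a_at without any of these 4 (0.0956 to 0.216) or, through the shared spread, without an rtTA -Dox array (0.0537) or an rtTA-Dmrt5 -Dox array of day 9 (0.0524). The latter was also lost on the compared arrays alone (0.0587). At day 9 the Dox changes were 0.34 ± 0.18, 0.42 ± 0.15 and 0.36 ± 0.13 for 1450533_a_at, 1438588_at and 1426208_x_at, and were not called (adjusted p 0.225, 0.0864 and 0.0824). Over time without Dox, 1438588_at rose by 0.62 ± 0.15 (adjusted p = 0.0347), a call lost without 6 of the 12 arrays, all of rtTA-Dmrt5 other than the day 9 +Dox pair (0.0564 to 0.166).

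Peg3, a large zinc finger protein linked to growth and cell death, was likewise higher in rtTA-Dmrt5 +Dox than in rtTA +Dox cells, on its 3 probe sets at a level of 4 or more. Probe set 1417356_at read 0.05 and 0.03 in rtTA -Dox, -0.05 and -0.26 in rtTA +Dox, 0.28 and -0.03 in rtTA-Dmrt5 -Dox and 1.02 and 1.12 in +Dox at day 7, then -0.29 and -0.04 in -Dox and -0.05 and 0.61 in +Dox at day 9. In the same order 1417355_at read 0.02 and 0.16, -0.03 and -0.39, -0.02 on both arrays, 0.57 and 0.51, -1.19 and -0.78, and 0.56 and 0.27. The brightest, 1433924_at, read -0.27 and -0.28, -0.29 and -0.26, 0.04 and 0.06, 0.37 and 0.30, -0.18 and -0.04, and 0.27 and 0.41. Each was above every rtTA array on both rtTA-Dmrt5 +Dox arrays of day 7.

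Between the lines with Dox the Peg3 changes were 1.22 ± 0.20 on 1417356_at (2.33-fold, n = 2 arrays a group, adjusted p = 0.00248), 0.75 ± 0.17 on 1417355_at (adjusted p = 0.0135) and 0.62 ± 0.10 on 1433924_at (adjusted p = 0.00255). Without Dox they were 0.09 ± 0.20, -0.11 ± 0.17 and 0.32 ± 0.10, with none called (adjusted p 0.82, 0.722 and 0.0543). That of 1417355_at with Dox was lost without rtTA +Dox replicate 2 (0.0987) or either rtTA-Dmrt5 +Dox array (0.0816 and 0.0624). The tested difference between the lines in the day 7 Dox response was called on 0 of 5 Peg3 probe sets. It was 0.86 and 1.13 on the probe sets at a level of 4 to 8 and 0.30 on 1433924_at.

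All 6 Dox responses of these Peg3 probe sets in rtTA-Dmrt5 cells were above 0, and 3 were called. At day 7, 1417356_at rose by 0.94 ± 0.20 (adjusted p = 0.0352), and at day 9 1417355_at by 1.40 ± 0.17 (2.64-fold, adjusted p = 0.000659) and 1433924_at by 0.45 ± 0.10 (adjusted p = 0.0141). The other responses were 0.56 ± 0.17 and 0.29 ± 0.10 at day 7 for 1417355_at and 1433924_at (adjusted p 0.13 and 0.197) and 0.45 ± 0.20 at day 9 for 1417356_at (adjusted p = 0.157). Differences between the probe sets were not tested. The day 7 call was lost without any of the 4 arrays compared or either rtTA -Dox array (0.057 to 0.243), and that of 1433924_at at day 9 without -Dox replicate 1 (0.1) or +Dox replicate 2 (0.0579). On the compared arrays alone they had adjusted p of 0.054 and 0.112.

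From day 7 to day 9, 1417355_at was lower without Dox, with a change of -0.96 ± 0.17 (adjusted p = 0.0077), and 1417356_at was lower with Dox, with a change of -0.79 ± 0.20 (adjusted p = 0.0385). The first was lost without either -Dox array of day 7 (0.0567 and 0.0518) or replicate 1 of day 9 (0.0619), and the second without an rtTA -Dox array (0.0565), either day 7 +Dox array (0.124 and 0.184) or replicate 1 of day 9 +Dox (0.173), and also on the compared arrays alone (0.13). Peg3's remaining probe sets, 1447731_at and 1447732_x_at, had a median log2 level of 1 to 2 and no call in any comparison.

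Mest, a paternally expressed enzyme of the alpha/beta hydrolase family, was higher in rtTA-Dmrt5 cells at day 7 and in their +Dox arrays at day 9. Probe set 1423294_at read -0.57 and -0.48 in rtTA -Dox, -0.71 and -0.55 in rtTA +Dox, 0.51 and 0.42 in rtTA-Dmrt5 -Dox and 0.62 and 0.53 in +Dox at day 7, then -0.45 and -0.34 in -Dox and 0.34 and 0.52 in +Dox at day 9. The -Dox arrays of day 9 stood apart from the other 6 rtTA-Dmrt5 arrays, just above the 4 of rtTA. The line differences were 0.99 ± 0.11 without Dox (1.98-fold, n = 2 arrays a group, adjusted p = 0.000347) and 1.21 ± 0.11 with Dox (2.31-fold, adjusted p = 7.58e-05).

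With Dox, Mest changed by 0.11 ± 0.11 at day 7 (adjusted p = 0.725) and was 0.82 ± 0.11 higher at day 9 (1.77-fold, adjusted p = 0.00127). The difference between these responses was 0.71 ± 0.16 and was not called (adjusted p = 0.0869). Over time without Dox it was lower at day 9, with a change of -0.86 ± 0.11 (adjusted p = 0.00181). All 4 Mest calls held without any of the 12 arrays in turn.

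Peg10, a retrotransposon-derived gene needed for the placenta, was lower with Dox at day 9. Probe set 1427550_at read -0.02 and -0.33 in rtTA -Dox, -0.12 and -0.25 in rtTA +Dox, 0.72 and 0.76 in rtTA-Dmrt5 -Dox and 0.05 and 0.02 in +Dox at day 7, then 0.79 and 1.0 in -Dox and -1.16 and -0.35 in +Dox at day 9. Within rtTA-Dmrt5 the +Dox arrays were below the -Dox arrays on both days. The Dox change was -1.65 ± 0.22 at day 9 (3.14-fold lower, n = 2 arrays a group, adjusted p = 0.00115), which held without any array in turn, and -0.70 ± 0.22 at day 7, which was not called (adjusted p = 0.15).

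Between the lines without Dox, Peg10 was 0.91 ± 0.22 higher in rtTA-Dmrt5 (adjusted p = 0.0179), a call lost without rtTA -Dox replicate 2 (0.108) or either rtTA-Dmrt5 -Dox array (0.0716 and 0.0903). With Dox it differed by 0.22 ± 0.22 (adjusted p = 0.611). The difference between the lines in the day 7 response was -0.69 ± 0.31 (adjusted p = 0.416).

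**Figure D4:**
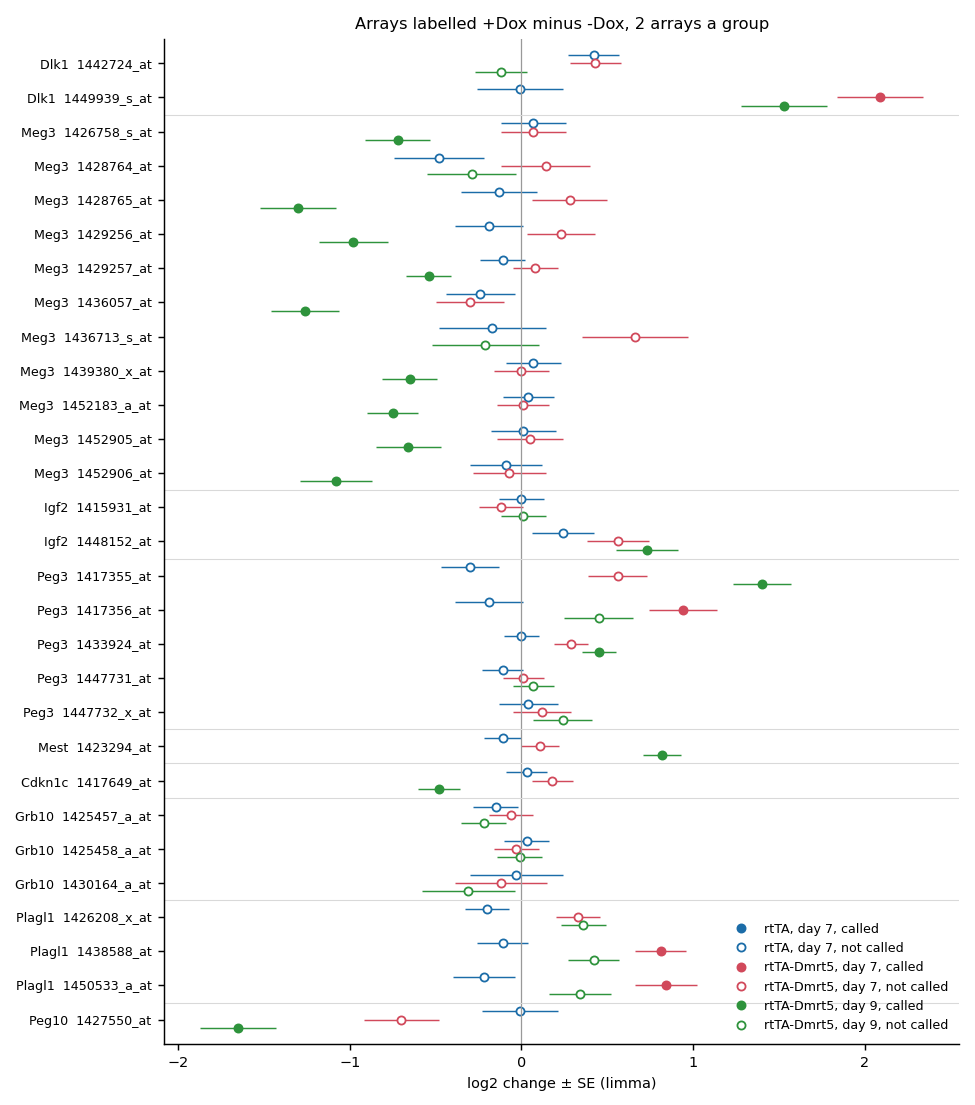
Log2 change with Dox (x axis, ± SE) of each of the 29 member probe sets (y axis) in rtTA cells at day 7 (blue), rtTA-Dmrt5 cells at day 7 (red) and rtTA-Dmrt5 cells at day 9 (green); filled points were called. No blue point is filled, 4 red points are, and the 16 filled green points include 9 of Meg3 and that of Peg10 to the left.

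Other features moved with these differences. An Actb probe set of the 3′ end minus that of the 5′ end, a sign of RNA length after amplification, was -0.37 to -0.20 on the rtTA arrays. It was -0.13 to 0.23 on the rtTA-Dmrt5 arrays, with 0.23 and 0.20 on those of day 9 +Dox. Each probe set was centred on its own median, so these differences compare arrays only. Hybridisation spike-ins read lower on the +Dox than on the -Dox arrays of each line and day. At day 9 they read -0.79 and -0.66 with Dox against 0.01 and 0.17 without. At day 7 they read -0.34 and -0.02 against 0.10 and 0.19 in rtTA-Dmrt5, and -0.08 and -0.23 against 0.19 and 0.08 in rtTA. The part of the Actb and spike-in differences in the members' line differences and Dox responses of day 7 and day 9 was not tested. The means of the polyA controls stayed between -0.05 and 0.08 on all 12 arrays.

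Marker genes of other cell types moved as well. Of 32 probe sets of primitive and visceral endoderm markers, 11 were higher and 0 lower in rtTA-Dmrt5 than in rtTA cells without Dox (34.4%, against 18.7% of all). With Dox 21 were higher and 0 lower between the lines (65.6%, against 14.6% of all). In the Dox response at day 9, 17 were higher and 0 lower (53.1%, against 18.3% of all). Their mean over 12 genes lay between -1.63 and -0.91 on the rtTA arrays and between -0.13 and 0.82 on the rtTA-Dmrt5 arrays. Of 26 neuronal probe sets, 10 were lower between the lines without Dox (38.5%) and 20 with Dox (76.9%), with 0 higher. In the Dox response 12 were lower at day 7 (46.2%, against 3.05% of all) and 15 at day 9 (57.7%), with 0 higher. From day 7 to day 9 without Dox, 12 were higher and 0 lower (46.2%, against 7.65% of all). Of 22 of undifferentiated ES cells, 4 were higher and 10 lower between the lines without Dox (63.6%). In the Dox response at day 9, 11 were higher and 0 lower (50%). From day 7 to day 9, 10 were higher and 1 lower without Dox (50%, against 7.65% of all). With Dox 12 were higher and 0 lower over these days (54.5%, against 9.10% of all). The share of these cells in the members' differences was not tested, and in bulk RNA fewer cells of a type and less RNA per cell cannot be told apart.

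For the remaining marker lists, calls between the lines without Dox went both ways, where 18.7% of all probe sets were called. Of 30 mesoderm and mesenchyme probe sets 6 were higher and 4 lower (33.3%), and of 19 trophoblast ones 2 and 1 (15.8%). Of 22 neural progenitor ones 2 were higher and 5 lower (31.8%). Of 19 ventral midbrain and dopaminergic probe sets 2 were higher and 1 lower (15.8%), and of 23 neural crest and surface ectoderm ones 6 and 5 (47.8%). With Dox at day 9 the trophoblast list had 5 higher and 0 lower (26.3%, against 18.3% of all), the smallest share of the 8 marker lists. Mesoderm and mesenchyme had 30% called and neural progenitors 36.4%, in both directions. Ventral midbrain and dopaminergic cells had 36.8%, and neural crest and surface ectoderm 65.2%, also in both directions. The day 7 Dox response was not limited to neuronal markers. Against 3.05% of all, the other lists ran from 9.38% called (endoderm, 3 higher and 0 lower) to 27.3% (neural progenitors, 0 higher and 6 lower). Undifferentiated ES cells had 5 higher and 0 lower (22.7%).

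Of 61 other imprinted genes, 52 had probe sets, 116 in all. Between the lines without Dox 19 were higher and 15 lower (29.3%, against 18.7% of all probe sets), and the median change was -0.01. The largest increases were Airn (2.84 ± 0.36), Kcnq1ot1 (2.30 ± 0.21), Nnat (2.20 ± 0.12) and Nap1l5 (2.01 ± 0.14), the first 2 being paternal noncoding RNAs that silence neighbouring genes. The largest decreases were Rian (-1.79 ± 0.24), Calcr (-1.73 ± 0.21), Asb4 (-1.29 ± 0.15) and Mirg (-1.27 ± 0.13). With Dox at day 9, 11 were higher and 10 lower (18.1%), a share near that of all probe sets (18.3%).

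Rian and Mirg are noncoding RNAs of the same imprinted domain as Dlk1 and Meg3 and, as Meg3, are expressed from the maternal copy. Without Dox, 3 of 4 Rian probe sets (-1.79 to -0.62) and 2 of 2 of Mirg (-1.27 to -0.49) were lower in rtTA-Dmrt5 than in rtTA cells. With Dox the calls were 3 of 4 (-0.89 to -0.36) and 1 of 2 (-0.69 to -0.31). The Rian probe sets at a median log2 level of 8 or more had negative changes, 1428055_at with a call (-0.94 ± 0.15, adjusted p = 0.00204) and 1452899_at without (-0.62 ± 0.20, adjusted p = 0.0571), where the 4 bright ones of Meg3 ran from -0.20 to 0.05. In the Dox response at day 9, where 9 of 11 Meg3 probe sets were lower, 1 of 4 Rian and 0 of 2 Mirg probe sets were called.

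Within the imprinted genes, a subset of 20 listed as an imprinted gene network had 41 probe sets of 18 genes. Whether all of them are expressed together with the members was not tested. Between the lines without Dox 7 were higher and 9 lower (39%, against 18.7% of all), and from day 7 to day 9 without Dox 10 were higher and 2 lower, a call for 29.3% where 7.65% of all probe sets were called. For comparison the members had 12 higher and 2 lower over the same days. Other shares of the subset were nearer to those of all probe sets. With Dox at day 9, 3 were higher and 6 lower (22%, against 18.3% of all). From day 7 to day 9 with Dox, 3 were higher and 3 lower (14.6%, against 9.10% of all).

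Genes of Igf signalling, through which Igf2 acts and which Grb10 dampens, had 50 probe sets of 19 genes. With Dox at day 9, 16 were higher and 4 lower (40%, against 18.3% of all), led by Igfbp5 (1.87 ± 0.16), Pappa2 (1.53 ± 0.19) and Pappa (1.15 ± 0.22), a binding protein and proteases that free Igf from such proteins. At day 7, 6 were higher and 3 lower with Dox (18%, against 3.05% of all), with Igfbp5 at 2.10 ± 0.19 and the adaptor Irs4 at -1.74 ± 0.17. Between the lines without Dox 10 were higher and 5 lower (30%, against 18.7% of all), Igfbp1 by 3.98 ± 0.29, and probe sets of Igf1 were called in both directions (1.40 ± 0.31 and -0.65 ± 0.20).

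A list of genes for DNA methylation and imprint upkeep, which also names chromatin genes such as Ezh2 and Ctcf, had 33 probe sets of 16 genes. Between the lines without Dox 3 were higher and 9 lower in rtTA-Dmrt5 (36.4%, against 18.7% of all), with Dnmt3b at -3.26 ± 0.22 and Dnmt3l at -2.92 ± 0.25, a methyltransferase and its cofactor, and Dppa3 at -1.61 ± 0.15 and Tet1 at -1.28 ± 0.21. With Dox at day 9, 10 were higher and 1 lower (33.3%, against 18.3% of all), the latter being Zfp57 (-0.53 ± 0.10), which guards imprints. Among the other cyclin-dependent kinase inhibitors, relatives of Cdkn1c with 8 probe sets of 6 genes, 2 were higher and 2 lower between the lines without Dox (50%, against 18.7% of all), Cdkn1a by 1.68 ± 0.13 and Cdkn1b by -0.61 ± 0.14.

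As a description of how the members ran together over the 12 arrays, Pearson correlations were taken between gene values, each the mean of a gene's probe sets in its highest level class. Peg3 correlated with Mest and with Plagl1 at 0.92, and Dlk1 with Plagl1 at 0.89 and with Cdkn1c at 0.86. Dlk1 and Meg3, neighbours in the genome, correlated at 0.12 and Meg3 and Peg10 at 0.66. By this rule the Meg3 value holds only its 4 probe sets at a level of 8 or more. It leaves out the 7 dimmer ones that were lower in rtTA-Dmrt5 -Dox than in rtTA -Dox cells at day 7. The arrays fall into 6 groups of 2, so these correlations carry mostly differences between groups.

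By the same measure the genes most like each member were Tmem129 (0.983), Snap47 (0.981) and Drp2 (0.979) for Dlk1, Csf2ra (0.962), Leng8 (0.916) and Stk32a (0.903) for Meg3, and Arel1 (0.934), Cdan1 (0.925) and Nob1 (0.904) for Igf2. They were Acsl6 (0.982), Nipsnap1 (0.979) and Mdfi (0.976) for Cdkn1c, Ppm1d (0.969), Sertad2 (0.967) and Rnf213 (0.964) for Plagl1, and Dkk1 (0.979), Hspg2 (0.978) and Tns3 (0.978) for Peg3. For Mest they were Ddn (0.975), Procr (0.970) and Cryz (0.969), and for Peg10 Pnisr (0.964), Nkap (0.954) and Nrbp2 (0.949). Grb10, with no call, was most like Supt16 (0.954), Rpgrip1 (0.924) and Nol10 (0.924). These were the highest values among 18193 genes, so they are high by selection.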

How the data were processed

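RNA of 12 samples was measured on Affymetrix arrays after DNase treatment and amplification of 5 ng total RNA with a NuGEN Ovation kit, per the labels' protocols. The deposited values are on a log2 scale taken from RMA, which the authors used per the submitters' processing notes; its version and the log base are not given in the sources used here. In the deposited table each probe set is centred on its median over the arrays (within 5.0e-07), which no source mentions, so a value is a difference and no filter on level was applied in the main tests. Scanner files were not used here. Column medians ran from -0.011 to 0.006. The level classes were read from the spacing of single-precision numbers; on 5000 simulated probe sets 97.2% came out right.

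The platform's annotation gave the gene names: 34945 had a single symbol, 932 several and 9160 none. limma 3.58.1 in R 4.3.3 was fitted to 45037 non-control probe sets with 6 group means and no replicate block, eBayes (6 residual and 3.92 prior degrees of freedom) and Benjamini-Hochberg adjustment within each of 9 comparisons. Errors are SE from this fit. On simulated data for the line comparison without Dox 59 of 100 log2 changes of 1 and 3 of 100 of 0.5 were called. So were 3 of 44837 unchanged probe sets. In the data 18.7% of all probe sets were called, a far larger share than was changed in the simulation. The Benjamini-Hochberg cutoff depends on that share, so the simulated recovery does not carry over to the data. Python 3.11.15 and matplotlib 3.10.9 drew the plots.

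The members, 5 gene lists, 8 marker lists and tests were chosen with earlier results of these data known. The rule for names was every member probe set, up to 4 called genes a direction of each list, and the 3 genes most correlated with a member. Alternatives were gene-level values, fits on the compared arrays alone, array weights, a replicate block, probe sets at a level of 4 or more, shifts by the array median or polyA controls, robust eBayes, adjusted p 0.01 and each array left out.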

Additional observations from a re-analysis of the deposited data

Results flagged for a closer look

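The Dox response of Dlk1 probe set 1449939_s_at at day 7 differed between the lines by 2.10 ± 0.36 on the log2 scale (2.09 ± 0.25 in rtTA-Dmrt5, -0.01 ± 0.25 in rtTA, n = 2 arrays a group, adjusted p = 0.0248 by limma). A test of the difference itself, past its threshold, brought it here. The other Dlk1 probe set, 1442724_at, gave 0.02 ± 0.21 (95% interval -0.45 to 0.48, adjusted p = 0.985). Over the alternatives, the adjusted p of 1449939_s_at ran from 0.0135 to 0.112.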

How the results depend on the processing

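None of the changes called for a member probe set reversed in the alternatives fitted to probe sets. Directions at the gene level were not compared with them. The counts of member calls that moved by over 1.5 times did so as follows. With a value per gene, genes were counted and set against counts of probe sets, so the unit differed. The gene counts were 6 and 5 between the lines without and with Dox and 1 and 8 for Dox at day 7 and day 9. They were 4 over time without Dox and 1 for the difference between days. In the main fit, genes with a called probe set numbered 6 and 6, 3 and 7, 6, and 0 in the same order. On the compared arrays alone the counts of member probe sets were 8 for Dox at day 9, 0 for the difference between lines and 2 over time with Dox. At adjusted p 0.01 they were 1, 9, 0, 8 and 1 for Dox at day 7, Dox at day 9, the difference between lines, and time without and with Dox. With probe sets at a level of 4 or more alone, time with Dox gave 7 and the difference between days 2.

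With each array left out in turn, counts ran from 10 to 14 and 14 to 16 between the lines without and with Dox, 1 to 5 and 10 to 16 for Dox at day 7 and day 9, 0 to 0 for Dox in rtTA cells, 0 to 2 for the difference between lines, 6 to 16 and 1 to 5 over time without and with Dox, and 0 to 6 for the difference between days. The 6 came without rtTA-Dmrt5 +Dox replicate 2 of day 9. Dox at day 9 gave 10 without either -Dox array of that day, and time without Dox gave 6, 7, 8 and 8 without each array compared. Where an array was left out, the lone array of its group was assumed to vary like the others.

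Calls that held in 7 alternatives, those other than gene-level values and adjusted p 0.01, numbered 12 of 13 and 16 of 16 between the lines. They were 2 of 4 and 8 of 16 for Dox and 0 of 1 for the difference between lines. Over time they were 9 of 14 and 1 of 4. In most of these comparisons fewer calls also held without each array in turn.

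The replicate numbers showed no common pairing: over 15 pairs of groups, deviations from group means correlated from -0.17 to 0.17, with 2 over 0.1. Groups of the same line and day were not taken apart, so this does not show whether their arrays shared a culture. With a replicate block the difference between lines gave 0 calls (adjusted p = 0.112 for 1449939_s_at), and no other count moved by over 1.5 times. It also ended the calls over time of Cdkn1c (0.0736), Plagl1 1438588_at (0.0595), and Meg3 1429257_at (0.0561) and 1452183_a_at (0.0524) without Dox, and of Meg3 1452906_at (0.0732) with Dox. With 2 arrays a group, changes near 0.5 on the log2 scale were called on some member probe sets and not on others. Peg3 1433924_at was called with Dox at day 9 in rtTA-Dmrt5 cells (0.45 ± 0.10). Igf2 1448152_at was not called with Dox at day 7 in those cells (0.56 ± 0.18). The share of changes of this size that is missed in these comparisons was not tested.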
